A study of Mus musculus with 15 samples.

Results

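Keratins and uroplakins were followed across the inner medulla (IM), the outer medulla (OM) and the cortex of the mouse kidney in bulk RNA sequencing. Every row whose symbol is Krt or Upk followed by a digit was taken, leaving out the keratin-associated Krtap and Krtdap rows. This gave 61 of the 25030 genes in the deposited table, made up of 55 keratins and 6 uroplakins. Each zone had 5 libraries, 15 in all, from total RNA of microdissected tissue of male mice labelled as wild type and as strain C56BL/6N. No treatment is named for any zone, and the ages were not given. Whether libraries of the same zone were made from different mice is not stated in the labels, so p-values measure the spread between libraries, which may be technical.

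Keratins are the intermediate filament proteins of epithelia. A type I and a type II keratin join as a pair, so a filament needs both, and simple epithelia such as the renal tubule are known for Krt8 with Krt18 and for Krt7 with Krt19. Stratified epithelia use Krt5 with Krt14 in their basal layer, while other keratins are made in the epidermis and in hair. Uroplakins are membrane proteins that form the plaques of the urothelium, the lining of the renal pelvis and bladder. The tetraspanins Upk1a and Upk1b pair with Upk2 and with Upk3a or Upk3b there. The urothelium of the renal pelvis covers the papilla, the tip of the IM.

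Values are in TPM (transcripts per 1000000), which corrects for gene length, so levels can be compared between genes. Whole reads recovered from the TPM steps gave between 16264486 and 25195553 gene reads in each library, with a median of 20.6 to 32.8 reads behind 1 TPM. Aqp2, the collecting duct water channel, averaged 7744 TPM in IM, 465 TPM in OM and 233 TPM in cortex, and Slc34a1, a proximal tubule phosphate transporter, averaged 516, 2826 and 5175 TPM in the same order. Slc12a1, the thick ascending limb cotransporter, was at 958 TPM in IM, 906 TPM in OM and 157 TPM in cortex, and was thus about as high in IM as in OM. Psca, a urothelial surface protein, was at 778 TPM in IM, 10.2 TPM in OM and 0.624 TPM in cortex. Members of the family were unusually high in OM library 1 and some were low in IM library 2. Some, but not all, of the results that touch these libraries are also given without them. In bulk tissue, fewer cells of a type and less RNA per cell cannot be told apart.

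Most of the family was nearly silent in the kidney. No read was listed in any library for 13 of the 61 genes, all keratins. Another 32 keratins were above 0 but stayed under a mean of 1 TPM in every zone. The remaining 16 genes reached a mean of 1 TPM or more in at least 1 zone, and they were 10 keratins and all 6 uroplakins. By zone, this level was reached by 16 genes in IM, 14 in OM and 7 in cortex.

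**Figure D1:**
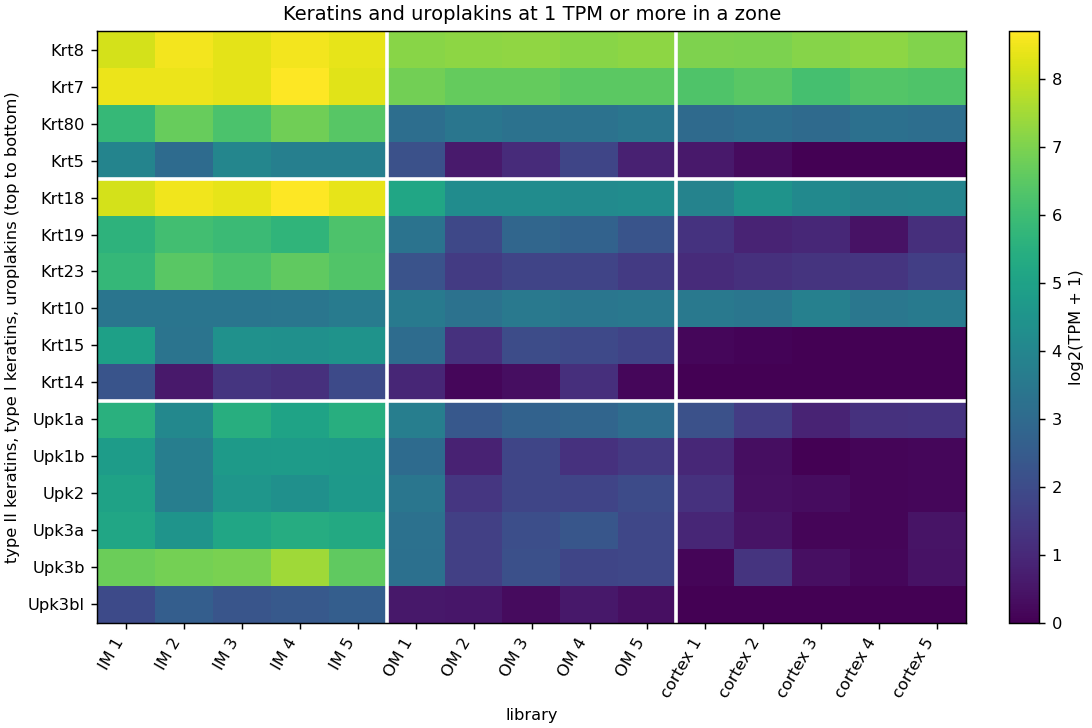
TPM of the 16 members with a zone mean of at least 1 TPM, drawn as log2(TPM + 1) in each of the 15 libraries, with IM to the left of OM and cortex. Color runs from low to high, and 15 of the 16 members have their highest mean in IM, while Krt10 has a similar color throughout.

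These 16 genes were also the ones that passed the filter of 1 TPM in 5 libraries and entered limma, fitted on log2(TPM + 1) over 15052 genes with Benjamini-Hochberg adjustment and calls at an adjusted p under 0.05. Between IM and OM, 15 of them were called higher in IM and 0 lower, against 66.4% of all tested genes called higher, 17.2% called lower and 83.7% called in either direction. Between IM and cortex, 15 were higher in IM and 0 lower, against 70.2% of all tested genes called higher and 86.2% called in either direction. Between OM and cortex, 11 were higher in OM and 0 lower, against 28.3% called higher, 6.3% called lower and 34.7% called in either direction. Of the 16, 4 passed the filter only through IM (Krt5, Krt14, Upk1b and Upk3bl), so a higher IM level was partly built into their selection. The 6 that passed on the cortex libraries alone were Krt7, Krt8, Krt10, Krt18, Krt23 and Krt80, and 5 of these were called higher in IM than in either other zone. Of these 6, only Krt7 and Krt23 were called higher in OM than in cortex, and neither call held after the median-ratio scaling described below. The other 10 did not pass on cortex alone, so a level above cortex was partly built into their selection. The count of 11 for OM over cortex is therefore not a like comparison with all tested genes.

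Over all 61 rows, whether tested or not, IM libraries lay wholly above OM libraries for 19 genes (31.1%, against 37.8% of all rows of the table) and wholly below for 0 genes (against 8.52%). IM lay wholly above cortex for 19 genes (31.1%, against 42.6% of all rows) and wholly below for 0 genes (against 8.59%). OM lay wholly above cortex for 11 genes (18%, against 14.9% of all rows) and wholly below it for 1 gene, Krt222 (1.64%, against 3.34%). The shares of the whole family were thus near or under those of the table. The size of the differences at single genes is described next.

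A general shift lay under these counts. The median log2 difference over all tested genes was 0.51 for IM minus OM, 0.65 for IM minus cortex and 0.11 for OM minus cortex, and median-ratio scaling brought these to 0.03, 0.03 and -0.03. After that scaling, 15 members were higher and 1 lower in IM than in OM, 15 and 1 in IM than in cortex, and 9 and 1 in OM than in cortex. The 1 lower member was Krt10 each time.

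Krt8 and Krt18, the partners of the simple epithelial filament, differed in how they changed along the kidney axis. They are neighbours on chromosome 15, with no protein-coding gene between them in the annotation used. Their promoter windows are shown because these adjacent partner genes moved by unequal amounts. Each window covers 250 bases before to 50 bases after the gene start in RefSeq on GRCm38.p6, with Krt8 at chr15:102004293-102004592 on the minus strand and Krt18 at chr15:102027966-102028265 on the plus strand.
Krt8: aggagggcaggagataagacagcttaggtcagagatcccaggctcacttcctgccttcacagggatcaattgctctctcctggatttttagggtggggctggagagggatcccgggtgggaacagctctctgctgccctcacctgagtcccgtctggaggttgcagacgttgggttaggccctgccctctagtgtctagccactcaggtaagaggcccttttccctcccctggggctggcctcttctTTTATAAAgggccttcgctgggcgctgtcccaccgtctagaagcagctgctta
Krt18: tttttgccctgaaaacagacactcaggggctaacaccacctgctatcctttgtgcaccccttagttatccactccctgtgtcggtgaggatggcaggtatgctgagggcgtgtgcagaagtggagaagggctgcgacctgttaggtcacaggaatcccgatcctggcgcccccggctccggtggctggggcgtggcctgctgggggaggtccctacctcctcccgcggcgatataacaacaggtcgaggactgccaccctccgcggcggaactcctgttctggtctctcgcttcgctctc
Capitals mark the TATA box letters TATAAA, searched on both strands. The Krt8 window held 2 overlapping matches, 1 on each strand, and the Krt18 window held none. The Krt8 matches began at positions -3 and -1, so they lay across the annotated gene start. Only exact letters were searched, so other TATA-like stretches were not counted in either window. Of 32851 RefSeq promoter windows of this length, 13.6% held TATAAA. Neither window held the AP-1 letters TGANTCA (7.81% of windows), the grainyhead letters AACCNGTT (2.09%) or the GC box letters CCGCCC (35.7%).

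Krt8, the type II partner, was abundant in every zone. Its level was 286, 376, 326, 371 and 331 TPM in IM libraries 1 to 5, against 143, 148, 151, 143 and 148 TPM in OM libraries and 131, 127, 137, 148 and 131 TPM in cortex libraries. All IM libraries lay above all OM and cortex libraries, while OM and cortex overlapped. The mean of 338 ± 37.0 TPM in IM (SD, n = 5) was 2.31-fold that of 146.6 ± 3.70 TPM in OM, a log2 difference of 1.19 (SE 0.07, limma adjusted p = 2.51e-10), which fell to 0.65 after scaling and was still called. OM did not differ by the test from cortex (134.8 ± 8.26 TPM), with a log2 difference of 0.12 (SE 0.07, limma adjusted p = 0.185) that turned to -0.04 after scaling.

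Krt18, the type I partner of Krt8, stood at 282, 370, 332, 417 and 331 TPM in IM, against 34.4, 17.6, 17.6, 16.9 and 17.8 TPM in OM and 13.8, 21.3, 16.3, 13.8 and 14.2 TPM in cortex. IM lay far above the other zones, and OM library 1 stood above the other OM libraries. The mean of 346.5 ± 50.5 TPM in IM was 16.6-fold the OM mean of 20.87 ± 7.55 TPM, a log2 difference of 4.03 (SE 0.18, limma adjusted p = 4.65e-11). OM and cortex (15.88 ± 3.20 TPM) overlapped, and their log2 difference of 0.34 missed the threshold (limma adjusted p = 0.165). It was 0.15 without OM library 1.

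Krt7, a type II keratin of simple ducts, was at 346, 348, 322, 414 and 314 TPM in IM, against 115, 99.2, 100, 91.4 and 90.5 TPM in OM and 77.9, 87.7, 70.2, 82.7 and 79.1 TPM in cortex. The 3 zones did not overlap. IM (348.9 ± 39.1 TPM) was 3.52-fold OM (99.17 ± 9.68 TPM), a log2 difference of 1.80 (SE 0.08, limma adjusted p = 2.7e-11). OM was 1.25-fold cortex (79.52 ± 6.45 TPM), a log2 difference of 0.31 (limma adjusted p = 0.00842) that was no longer called after scaling (0.15, limma adjusted p = 0.139).

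Krt19, the small type I keratin of ducts and of the urothelium, had 48.0, 65.5, 60.2, 51.1 and 76.5 TPM in IM, against 8.98, 2.72, 6.35, 5.74 and 3.80 TPM in OM and 1.43, 0.843, 0.976, 0.358 and 1.28 TPM in cortex. It fell in steps with no overlap between zones. IM (60.26 ± 11.5 TPM) was 10.9-fold OM (5.519 ± 2.42 TPM), a log2 difference of 3.30 (SE 0.24, limma adjusted p = 5.57e-09). OM in turn was 5.64-fold cortex (0.978 ± 0.419 TPM), a log2 difference of 1.67 (SE 0.24, limma adjusted p = 8.94e-05), and it was 1.49 without OM library 1, still called.

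Krt23, a type I keratin, had 55.3, 89.3, 74.4, 94.5 and 80.9 TPM in IM, against 3.71, 1.84, 2.43, 2.49 and 1.78 TPM in OM and 1.08, 1.33, 1.47, 1.54 and 2.09 TPM in cortex. IM stood apart and the other zones overlapped. IM (78.89 ± 15.3 TPM) was 32.2-fold OM (2.449 ± 0.774 TPM), the largest ratio of means between IM and OM among the 10 keratins (log2 difference 4.54, SE 0.16, limma adjusted p = 2.02e-12). The OM to cortex difference of 0.45 (limma adjusted p = 0.0398) was lost on leaving out any of 7 single libraries, among them OM library 1 (0.33, limma adjusted p = 0.0957), and after scaling (0.36, limma adjusted p = 0.0905). Krt20, a keratin of the umbrella cells that cap the urothelium, stayed low, with means of 0.592 TPM in IM, 0.101 TPM in OM and 0.231 TPM in cortex, and its zones overlapped.

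**Figure D2:**
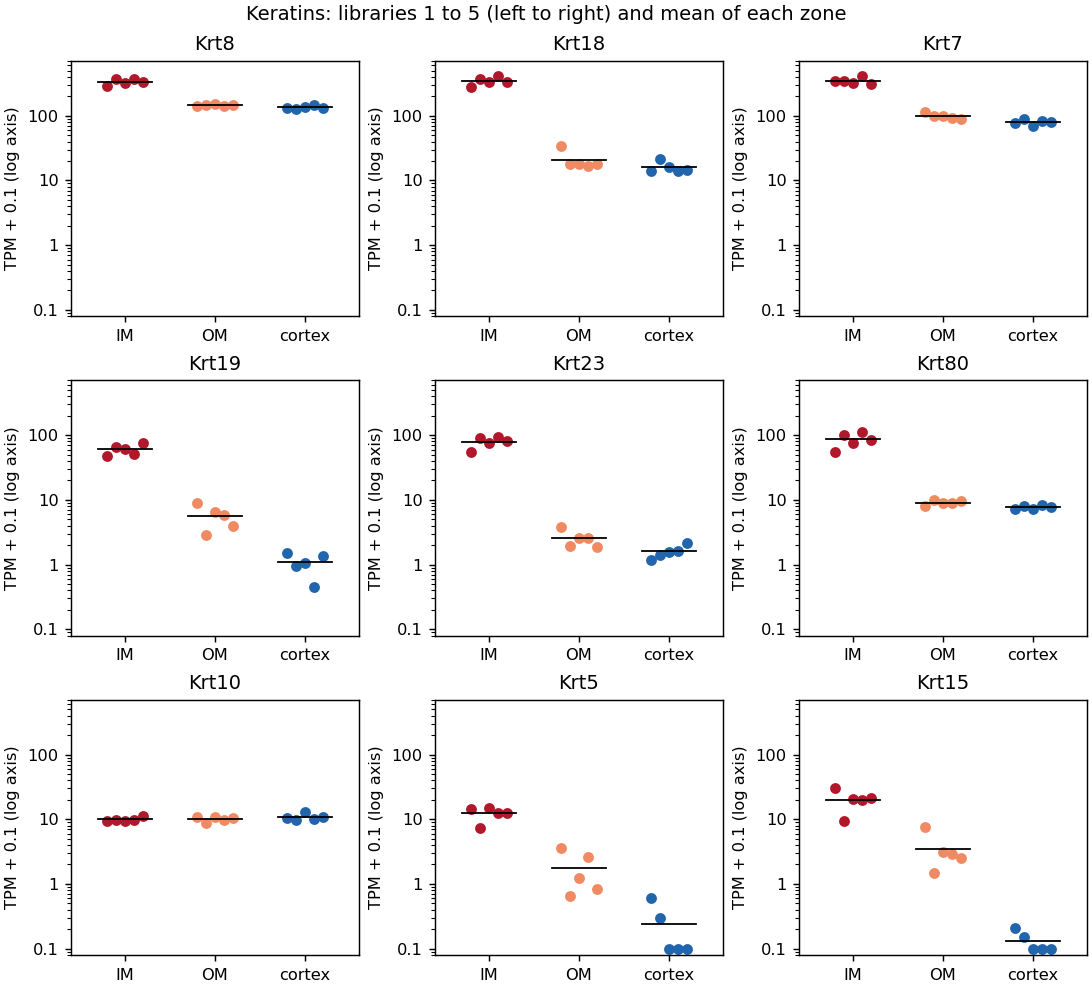
TPM + 0.1 on a log axis for 9 keratins in IM, OM and cortex, with 1 point per library (libraries 1 to 5 from left to right) and a line at the zone mean. Krt8 differs by 2.31-fold between IM and OM, Krt18 by 16.6-fold and Krt23 by 32.2-fold, while Krt10 is near 10 TPM in all zones.

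In summed TPM, the type II keratins exceeded the type I keratins in every zone, by the smallest ratio in IM and by far larger ratios elsewhere. Summed over the 28 type I genes, the level was 519 ± 61 TPM in IM, 43.6 ± 13.6 TPM in OM and 30.5 ± 3.47 TPM in cortex. Summed over the 27 type II genes, it was 788 ± 85.1, 257 ± 9.41 and 222 ± 9.93 TPM in the same zones. The type II to type I ratio was therefore 1.52 ± 0.080 in IM, 6.23 ± 1.41 in OM and 7.38 ± 1.06 in cortex. Krt7 and Krt8 made up 87.3% of type II TPM in IM, 95.7% in OM and 96.4% in cortex. Krt18 was the main type I keratin in each zone (66.6%, 47.7% and 51.8%), and Krt10 took 1.92% in IM, 24.2% in OM and 35.6% in cortex.

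Within a library, Krt8 over Krt18 was 0.890 to 1.02 in IM, 4.16 to 8.58 in OM and 5.98 to 10.8 in cortex. Such ratios do not depend on how a library is scaled, and a change in one shows unequal change of the 2 genes, not which of them moved. Ratios of partner genes were compared with exact two-sided permutation tests over libraries (5 against 5, smallest possible p 0.00794), with p-values adjusted over 15 tests. The log2 ratio of Krt18 to Krt8 was higher in IM than in OM by 2.90 and than in cortex by 3.13 (adjusted exact permutation p = 0.0149 each). OM exceeded cortex by 0.23 (adjusted exact permutation p = 0.451), which misses the threshold. For Krt19 over Krt8 the differences were 2.32 for IM minus OM, 4.58 for IM minus cortex and 2.26 for OM minus cortex (adjusted exact permutation p = 0.0149 each). Krt7 over Krt8 moved less, by 0.61 for IM minus OM and 0.81 for IM minus cortex (adjusted exact permutation p = 0.0149 each), and by 0.19 for OM minus cortex (adjusted exact permutation p = 0.131).

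**Figure D3:**
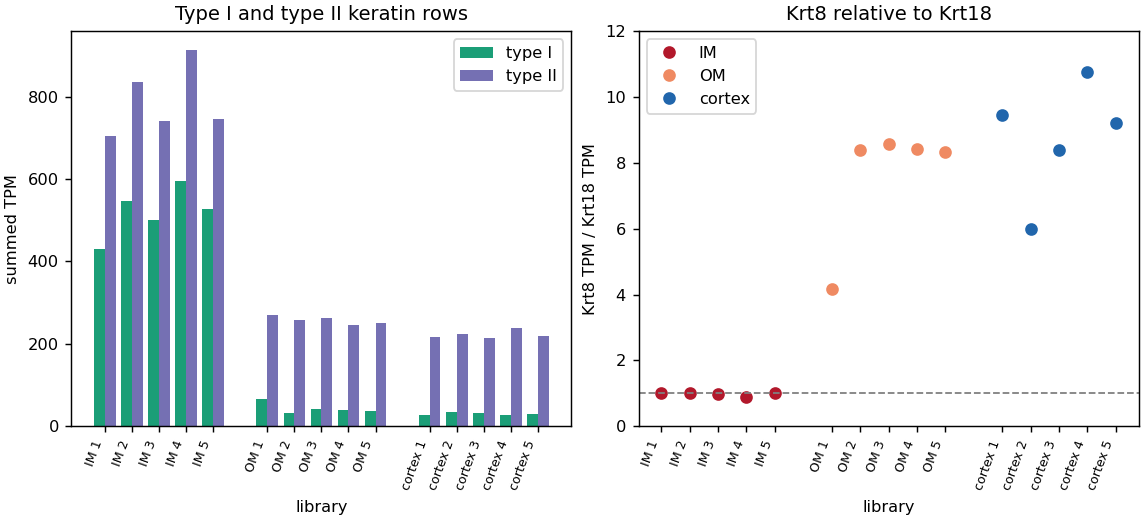
Left, bars of summed TPM of the type I and type II keratins in each library. Right, Krt8 TPM over Krt18 TPM in each library, with a dashed line at a ratio of 1, near which the IM points lie (0.890 to 1.02), while OM spans 4.16 to 8.58 and cortex 5.98 to 10.8.

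Of 9 keratins classed with the epidermis, 2 were expressed. Krt80, a type II keratin, was at 55.6, 101, 75.2, 113 and 85.2 TPM in IM, against 7.88, 9.70, 8.8, 8.84 and 9.63 TPM in OM and 7.07, 7.82, 7.06, 8.19 and 7.76 TPM in cortex. IM (85.84 ± 22.1 TPM) was 9.57-fold OM (8.970 ± 0.741 TPM), a log2 difference of 3.09 (SE 0.14, limma adjusted p = 2.19e-11), while OM and cortex (7.580 ± 0.497 TPM) overlapped and did not pass the test (limma adjusted p = 0.249). Mir1941, annotated on the opposite strand of Krt80, had means of 2.45 TPM in IM, 0.258 TPM in OM and 0 TPM in cortex. The strand setting is not given in the sources used here, so reads of genes overlapping Krt80, Krt7, Krt8, Krt10 and Krt5 on the other strand cannot be told apart from theirs.

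Krt10, a type I keratin of the upper epidermis, was the exception of the expressed family. It had 9.46, 9.54, 9.46, 9.61 and 11.2 TPM in IM, against 10.9, 8.65, 10.6, 9.72 and 10.3 TPM in OM and 10.5, 9.80, 12.7, 10.005 and 10.9 TPM in cortex. The zones overlapped, and no comparison passed limma on the TPM scale (log2 difference -0.02 for IM minus OM, adjusted p = 0.789). After scaling it was called lower in IM than in OM (-0.51, limma adjusted p = 4.1e-05), lower in OM than in cortex (-0.24, limma adjusted p = 0.0329) and lower in IM than in cortex (-0.75, limma adjusted p = 4.74e-07), so the calls rest on the scale.

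Of 11 keratins of stratified epithelia, 3 were expressed, and these were keratins of basal cells. Krt5 had 14.1, 7.18, 14.8, 12.6 and 12.5 TPM in IM, against 3.49, 0.555, 1.12, 2.51 and 0.722 TPM in OM and 0.505, 0.194, 0, 0 and 0 TPM in cortex. IM library 2 was the lowest IM library, yet it lay above every OM library. IM (12.23 ± 3.00 TPM) was 7.28-fold OM (1.680 ± 1.27 TPM), a log2 difference of 2.39 (SE 0.27, limma adjusted p = 8.07e-07), and OM exceeded cortex by 1.13 (SE 0.27, limma adjusted p = 0.00494). Only 17 reads over 5 libraries stood behind Krt5 in cortex.

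Krt15, a type I basal keratin, had 30.0, 9.30, 20.3, 19.5 and 21.3 TPM in IM, against 7.43, 1.35, 3.05, 2.82 and 2.39 TPM in OM and 0.107, 0.0495, 0, 0 and 0 TPM in cortex. The zones did not overlap. IM (20.07 ± 7.35 TPM) was 5.89-fold OM (3.409 ± 2.34 TPM), with log2 differences of 2.31 for IM minus OM (SE 0.30, limma adjusted p = 4.32e-06) and 1.96 for OM minus cortex (limma adjusted p = 0.000187). Krt14, the usual type I partner of Krt5, was lower, at 2.002 ± 1.31 TPM in IM and 0.529 ± 0.518 TPM in OM, and was listed at 0 in every cortex library. It was called higher in IM than in OM (0.92, limma adjusted p = 0.00513) although their libraries overlapped, and the call was lost under quantile normalization (0.45, limma adjusted p = 0.114). In IM and OM alike, the mean of Krt15 was above that of Krt14.

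The keratins of hair and its follicle were close to absent. Of 26, 9 were at 0 in every library and none reached a mean of 1 TPM. The highest single values among all 32 trace keratins were 1.43 TPM for Krt88 and 1.26 TPM for Krt87, both follicle keratins, then 0.988 TPM for Krt4, 0.948 TPM for Krt222 and 0.866 TPM for Krt20. Krt4, which lines moist stratified epithelia, averaged 0.670 TPM in IM and 0.0656 TPM in OM and was listed at 0 in cortex, with no overlap between zones. Krt222 ran the other way between OM and cortex, with 0.285, 0.344, 0.364, 0.433 and 0.0979 TPM in OM against 0.742, 0.948, 0.915, 0.731 and 0.560 TPM in cortex, and IM libraries spanned 0.163 to 0.601 TPM. These trace genes rested on 2 to 237 reads over the 15 libraries where reads were recovered and were not tested.

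All 6 uroplakins were highest in IM and lowest in cortex. They were called higher in IM than in OM, in IM than in cortex, and in OM than in cortex by limma. None of them passed the filter on the cortex libraries alone, so a level above cortex was partly built into their selection. Their summed level was 244 ± 41.0 TPM in IM, 22.1 ± 13.8 TPM in OM and 3.35 ± 2.25 TPM in cortex. Promoter windows of 1 tetraspanin and 1 partner are shown, since both genes fell from IM to cortex while lying on different chromosomes. The amounts differed, with IM 19.8-fold cortex for Upk1a and 92.6-fold for Upk3a, and the ratio of these 2 genes was not tested. Upk1a is at chr7:30612685-30612984 on the minus strand and Upk3a at chr15:85016891-85017190 on the plus strand (RefSeq, GRCm38.p6).
Upk1a: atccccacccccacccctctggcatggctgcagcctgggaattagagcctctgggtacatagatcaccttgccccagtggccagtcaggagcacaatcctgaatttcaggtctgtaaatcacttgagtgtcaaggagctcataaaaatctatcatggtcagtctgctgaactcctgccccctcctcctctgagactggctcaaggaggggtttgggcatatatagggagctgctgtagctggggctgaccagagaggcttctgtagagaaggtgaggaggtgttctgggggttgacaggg
Upk3a: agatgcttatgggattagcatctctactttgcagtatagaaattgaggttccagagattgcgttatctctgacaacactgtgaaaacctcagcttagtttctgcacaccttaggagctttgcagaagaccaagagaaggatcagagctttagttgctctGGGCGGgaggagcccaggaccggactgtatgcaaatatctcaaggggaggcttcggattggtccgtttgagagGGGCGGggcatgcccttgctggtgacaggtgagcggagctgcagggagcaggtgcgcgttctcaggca
Capitals mark GGGCGG, the GC box CCGCCC read on its opposite strand. It occurred 2 times in the Upk3a window and not in the Upk1a window, and the other motifs named above were in neither.

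Among the tetraspanins, Upk1a had 45.5, 15.9, 42.8, 32.3 and 42.7 TPM in IM, against 12.1, 4.25, 5.73, 6.24 and 7.70 TPM in OM and 3.51, 1.92, 0.843, 1.38 and 1.41 TPM in cortex. The zones did not overlap. IM (35.86 ± 12.2 TPM) was 4.98-fold OM (7.200 ± 2.99 TPM, log2 difference 2.15, SE 0.31, limma adjusted p = 1.36e-05), and OM was 3.98-fold cortex (1.811 ± 1.02 TPM, log2 difference 1.54, SE 0.31, limma adjusted p = 0.00156).

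Upk1b had 27.0, 12.3, 25.8, 26.7 and 25.9 TPM in IM, against 7.28, 0.801, 2.54, 1.37 and 1.73 TPM in OM and 0.938, 0.241, 0, 0.0955 and 0.114 TPM in cortex. In 4 IM libraries it was nearly the same, and IM library 2 was lower. IM (23.57 ± 6.30 TPM) was 8.59-fold OM (2.744 ± 2.61 TPM, log2 difference 2.88, SE 0.35, limma adjusted p = 2.2e-06). OM exceeded cortex by 1.37 (SE 0.35, limma adjusted p = 0.00758), although the lowest OM library was under the highest cortex library.

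Upk2, a partner of Upk1a, had 31.3, 12.3, 22.8, 19.9 and 25.3 TPM in IM, against 9.68, 1.62, 2.57, 2.46 and 3.02 TPM in OM and 1.37, 0.292, 0.226, 0.0966 and 0.115 TPM in cortex. The zones did not overlap, and library 1 was the highest of each zone. IM (22.32 ± 7 TPM) was 5.77-fold OM (3.869 ± 3.29 TPM, log2 difference 2.40, SE 0.35, limma adjusted p = 1.35e-05). OM was 9.21-fold cortex (0.420 ± 0.538 TPM, log2 difference 1.65, SE 0.35, limma adjusted p = 0.00212). The log2 differences are of TPM + 1, which understates the change at levels as low as those of cortex.

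Upk3a, a partner of Upk1b, had 34.7, 21.8, 34.7, 40.6 and 37.8 TPM in IM, against 8.57, 2.10, 3.29, 4.05 and 2.57 TPM in OM and 0.917, 0.385, 0.0892, 0.0763 and 0.363 TPM in cortex. The zones did not overlap. IM (33.92 ± 7.20 TPM) was 8.24-fold OM (4.117 ± 2.59 TPM, log2 difference 2.86, SE 0.27, limma adjusted p = 1.08e-07). OM was 11.2-fold cortex (0.366 ± 0.341 TPM, log2 difference 1.82, SE 0.27, limma adjusted p = 0.000131). Only 22 reads over 5 libraries stood behind Upk3a in cortex.

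Upk3b, which can take the place of Upk3a beside Upk1b and is also known from mesothelium, was the most abundant uroplakin in IM. It had 106, 118, 125, 175 and 95.9 TPM in IM, against 8.27, 2.14, 3.36, 2.52 and 2.59 TPM in OM and 0.0906, 1.5, 0.291, 0.124 and 0.346 TPM in cortex. IM library 2 lay within the other IM libraries, unlike for the other 4 uroplakins above. IM (123.9 ± 30.8 TPM) was 32.8-fold OM (3.776 ± 2.55 TPM, log2 difference 4.80, SE 0.29, limma adjusted p = 1.31e-09). OM was 8.01-fold cortex (0.471 ± 0.588 TPM, log2 difference 1.65, SE 0.29, limma adjusted p = 0.000608). Upk3bl, its close relative, averaged 4.257 ± 0.881 TPM in IM and 0.378 ± 0.137 TPM in OM and was listed at 0 in cortex. Of the 6 mesothelial markers used, Msln averaged 14.4 TPM in IM, 0.794 TPM in OM and 0.260 TPM in cortex, and Rspo1 averaged 0.533, 0.217 and 0.433 TPM in the same zones. Gpm6a averaged 59.3 TPM in IM, 147 TPM in OM and 51.9 TPM in cortex, Wt1 averaged 1.81, 2.71 and 3.34 TPM, and Lrrn4 and Bnc1 were at most 0.217 and 0.113 TPM in any library. In cortex library 2, the highest cortex library for Upk3b, Msln was at 4.77 times the mean of the other 4 cortex libraries. The part of mesothelium in the Upk3b level was not tested.

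**Figure D4:**
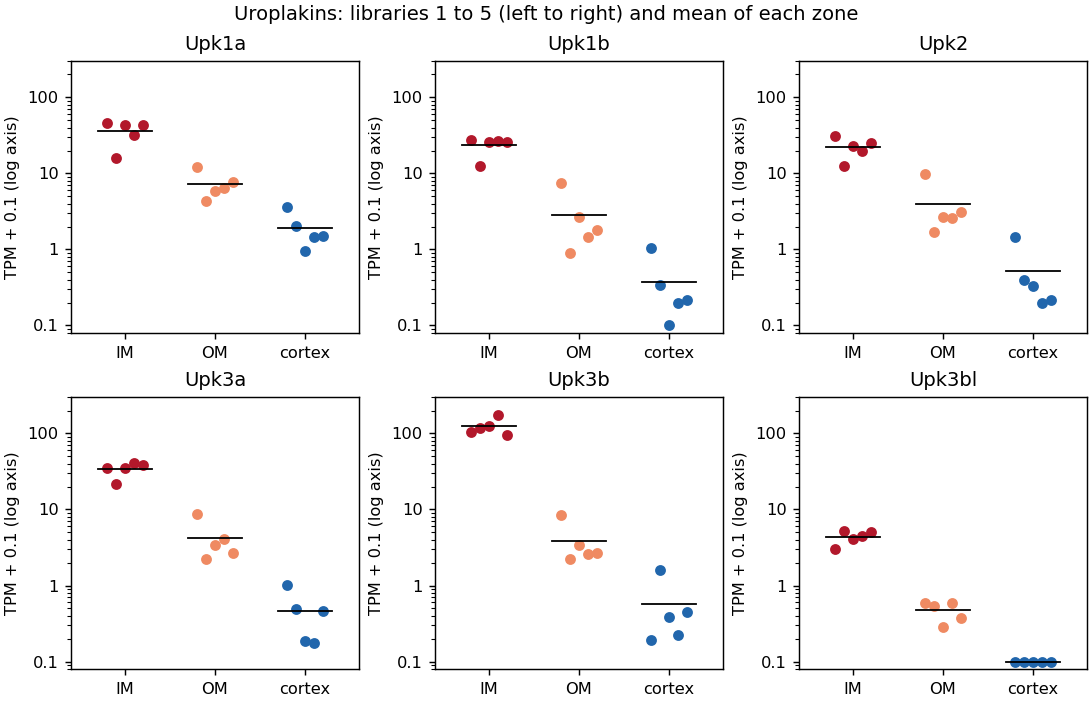
TPM + 0.1 on a log axis for the 6 uroplakins in IM, OM and cortex, with 1 point per library (libraries 1 to 5 from left to right) and a line at the zone mean. The zones step down from IM to cortex, OM library 1 is the highest OM library for Upk1a, Upk1b, Upk2, Upk3a and Upk3b, and IM library 2 is the lowest IM library for Upk1a, Upk1b, Upk2 and Upk3a.

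Most comparisons of uroplakin partners missed the threshold. Upk3a over Upk1b differed on the log2 scale by -0.24 for IM minus OM and 0.31 for OM minus cortex (adjusted exact permutation p = 0.451 each), and by 0.08 for IM minus cortex (adjusted exact permutation p = 0.794), with a sign that depended on the pseudocount for the pairs with cortex. Upk2 over Upk1a was higher in IM than in cortex by 1.53 (adjusted exact permutation p = 0.0149), but the call was lost with a pseudocount of 1 (0.35, adjusted exact permutation p = 0.0714). It differed by 0.43 for IM minus OM (adjusted exact permutation p = 0.141) and by 1.10 for OM minus cortex (adjusted exact permutation p = 0.0529).

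The members split by how they varied between libraries of a zone. In IM library 2, 7 members were the lowest of their zone (Krt5, Krt14, Krt15, Upk1a, Upk1b, Upk2 and Upk3a), at 0.216 to 0.590 of the mean of the other 4 IM libraries. The other 9 expressed members were at 0.943 to 1.24 of that mean. This group of 7 was picked from these values, so no test was made. The same 7 genes were at 2.02 to 4.52 times the mean of the other 4 libraries in OM library 1, where the other 9 ranged from 0.853 to 3.12, so the groups overlapped there, and Krt14 was highest in OM library 4. Of the 7, 6 had a ratio in cortex library 1, at 2.53 to 10.4.

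Summed over these 7 genes, the level was 187, 79.4, 163, 153 and 168 TPM in IM, 49.4, 10.8, 18.5, 20.7 and 18.3 TPM in OM and 7.35, 3.08, 1.16, 1.65 and 2.00 TPM in cortex. Library 1 was the highest of each zone. IM library 2 was the deepest of all, with 25195553 reads. Urothelial markers outside the family varied in the same libraries in part. In IM library 2, Sprr1a was at 0.429 of the mean of the other 4 libraries, Grhl3 at 0.285 and Fxyd3 at 0.628, while Psca was at 1.15, Trp63 at 1.08 and Shh at 1.09. In OM library 1, Psca was at 10.6 times, Fxyd3 at 4.54 times, Foxa1 at 3.88 times and Sprr1a at 3.29 times that mean, while Snx31 was at 1.39, Trp63 at 1.32 and Tmprss2 at 0.892. Markers of other cells were also high in OM library 1. The 4 smooth muscle markers summed to 89.9 TPM there, against 38.9 to 45.6 TPM in the other OM libraries, and the thin limb markers Sptssb and Cryab were at 18.1 and 1.83 times the mean of the other libraries. The principal cell markers Fxyd4 and Aqp2 were at 1.96 and 1.18 times. The 4 thick ascending limb markers summed to 2499 TPM in IM library 2, against 2991 to 5112 TPM in the other IM libraries, and to 2728 TPM in OM library 1, against 4541 to 5489 TPM in the other OM libraries. The part of these cell types in the differences between libraries was not tested.

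**Figure D5:**
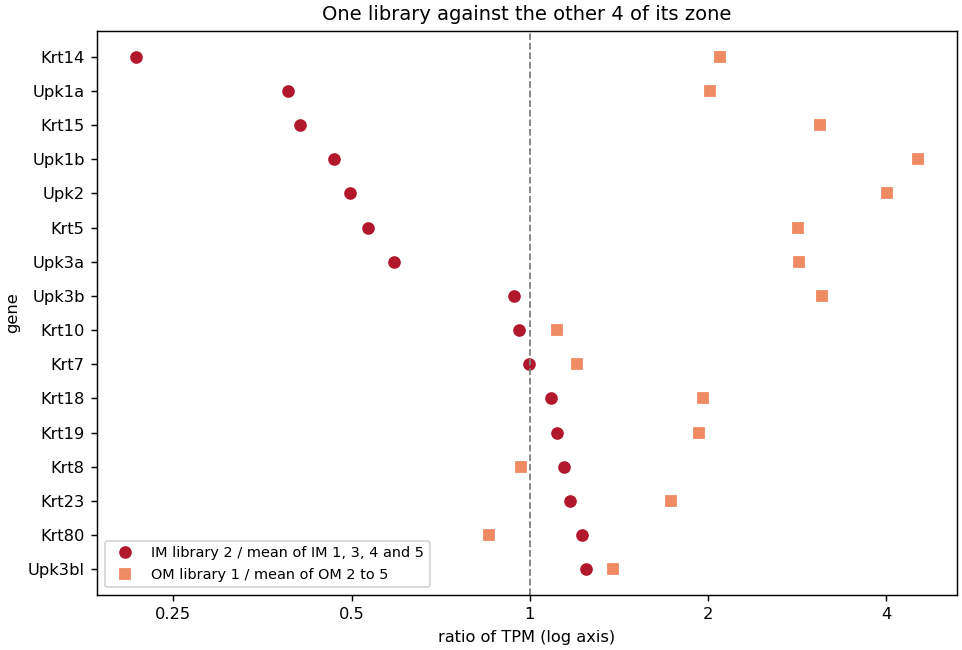
Ratio of the TPM of IM library 2 and of OM library 1 to the mean of the other 4 libraries of the zone, on a log axis, for the 16 expressed members, with a dashed line at a ratio of 1. In IM library 2, 7 members lie between 0.216 and 0.590 and the other 9 between 0.943 and 1.24.

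Leaving out OM library 1 and cortex library 1 together, a choice made after seeing the data, kept all 6 uroplakins called higher in OM than in cortex. Upk1a then differed by 1.54, Upk1b by 1.19, Upk2 by 1.52, Upk3a by 1.69 and Upk3b by 1.29 on the log2 scale (limma adjusted p at most 0.00212), and Upk3bl by 0.43 (limma adjusted p = 0.0255). Without IM library 2, the IM minus OM difference was 2.41 for Upk1a, 3.09 for Upk1b, 2.58 for Upk2, 3.01 for Upk3a, 2.56 for Krt5 and 2.55 for Krt15. These genes were chosen for their low value in that library, so its removal had to raise each difference.

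Whether a gene changed more between IM and OM than between OM and cortex was tested directly, as the IM minus OM difference less the OM minus cortex difference. This was called higher for 10 of the 16 members, against 50.6% of all tested genes called higher, 15% called lower and 65.6% called in either direction. It was 3.70 for Krt18 (SE 0.31, limma adjusted p = 5.21e-07), 4.09 for Krt23 (SE 0.28, limma adjusted p = 4.32e-08) and 2.87 for Krt80 (SE 0.24, limma adjusted p = 2.95e-07). It was 1.49 for Krt7 and 1.07 for Krt8 (limma adjusted p = 9.97e-07 and 3.41e-06). These 5 were called under all 24 settings tried. The calls for Krt19, Krt5, Upk1b, Upk3b and Upk3bl were each lost with voom on recovered reads, and those for Krt19, Krt5 and Upk1b also with a pseudocount of 0.1. Of 23 alternatives, 14 ended the call for Upk1b, 10 of them by leaving out a single library, and 7 ended that for Krt5, 3 of them likewise.

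Other genes of the same structures came from lists. Of 16 further intermediate filament genes, 9 were tested, and 8 were higher and 0 lower in IM than in OM, 9 and 0 in IM than in cortex, and 3 and 0 in OM than in cortex, against 66.4%, 70.2% and 28.3% of all tested genes called higher. The median log2 difference of the list was 1.12 for IM minus OM, against 0.51 for all tested genes. Vim, the filament of mesenchymal cells, averaged 106 ± 26.4 TPM in IM, 42.5 ± 6.32 TPM in OM and 25.2 ± 5.37 TPM in cortex. Lmna, a nuclear lamin, averaged 62.8, 36.6 and 36.4 TPM in the same zones. Nes, known from progenitor cells and podocytes, stood at 32.6 TPM in IM, 8.75 TPM in OM and 7.12 TPM in cortex, and Lmnb2 at 22.7, 9.88 and 8 TPM.

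Desmosomes anchor keratin filaments at cell contacts. Of 25 desmosome and anchor genes, 16 were tested, and 12 were higher and 2 lower in IM than in OM, 12 and 1 in IM than in cortex, and 10 and 0 in OM than in cortex. Of all tested genes, 66.4% were higher and 17.2% lower in IM than in OM, and 70.2% higher and 16% lower in IM than in cortex. The counts for both of these pairs were near the background. For OM against cortex, 28.3% of all tested genes were higher and 6.3% lower. The median log2 difference was 0.86 for IM minus OM and 0.28 for OM minus cortex, against 0.51 and 0.11 for all tested genes. Dsp, which ties the filaments to the desmosome, averaged 95.7 ± 13.96 TPM in IM, 9.55 ± 0.673 TPM in OM and 4.69 ± 0.377 TPM in cortex. Ppl, a related plakin, averaged 115 ± 22.7, 6.23 ± 1.28 and 1.31 ± 0.172 TPM. Jup, the desmosomal plakoglobin, averaged 141, 65.7 and 53.3 TPM. The 2 genes lower in IM than in OM were Pkp4 (145 TPM in IM, 194 TPM in OM and 160 TPM in cortex) and Itga6 (11.1, 16.5 and 17.5 TPM), a hemidesmosome integrin subunit. Dsg3, Dsg4 and Dsc1, desmosomal cadherins of skin, were listed at 0 in all libraries.

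Of 18 regulators and effectors of urothelial differentiation, 17 were tested, and 15 were higher and 2 lower in IM than in OM, 13 and 1 in IM than in cortex, and 10 and 1 in OM than in cortex, against 66.4%, 70.2% and 28.3% of all tested genes called higher. The count for IM against cortex was near that background. The median log2 difference was 1.77 for IM minus OM, against 0.51 for all tested genes. Mal, an apical sorting protein, averaged 1047 ± 115 TPM in IM, 170 ± 5.74 TPM in OM and 117 ± 8.42 TPM in cortex. The epithelial transcription factors Elf3 and Ehf averaged 177 and 172 TPM in IM, 27.9 and 15.4 TPM in OM and 14.98 and 9.91 TPM in cortex. Gata3 averaged 78.1 TPM in IM, 8.71 TPM in OM and 10.3 TPM in cortex. The genes lower in IM than in OM were Myo5b (49.0 and 57.3 TPM) and Synpo2l (0.745 and 1.44 TPM), and Rxra was lower in OM (55.5 TPM) than in cortex (66.9 TPM). Several of these genes are also expressed by the collecting duct.

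Marker lists of cell types that could carry these genes differed between zones, and their counts stand against 66.4% of all tested genes called higher in IM than in OM. The 11 urothelial markers outside the family, none at 0 throughout, summed to 1053 to 1346 TPM in IM libraries, 103 to 166 TPM in OM and 111 to 127 TPM in cortex, and 9 of 9 tested were higher in IM than in OM. Psca and Tmprss2 carried most of that sum, and Tmprss2 alone averaged 247 TPM in IM, 88.1 TPM in OM and 106 TPM in cortex. Snx31, Trp63, Foxa1, Grhl3 and Shh are also among the urothelial regulators and effectors above, so the counts of these lists are not separate results. The 8 principal cell markers summed to 8470 to 13570 TPM in IM, 963 to 1346 TPM in OM and 643 to 796 TPM in cortex, with 6 of 8 higher in IM than in OM. All 7 thin limb markers were higher in IM than in OM, with sums of 5298 to 9002, 458 to 727 and 104 to 158 TPM in the same zones. The 6 mesothelial markers used summed to 46.8 to 89.9 TPM in IM, 130 to 166 TPM in OM and 41.4 to 93.0 TPM in cortex, and most of that was Gpm6a. The 9 epidermal and hair markers used summed to 21.0 to 24.0 TPM in IM, 13.3 to 18.3 TPM in OM and 17.9 to 22.4 TPM in cortex. Most of that was Tchh (means of 9.52, 11.0 and 14.7 TPM in the same zones), Sbsn (7.74, 3.79 and 4.48 TPM) and Lor (3.87, 0.483 and 0.623 TPM). Of 3 tested, 2 were higher in IM than in OM, near the share of all tested genes. Krtdap, Klk5 and Lce1a1 were at 0 in all libraries. The part of each cell type in the keratin and uroplakin levels was not tested.

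Genes outside the family whose log2(TPM + 1) ran most like single members over the 15 libraries were named as a description. These libraries share the zone differences, so those differences enter every coefficient. For Upk1b they were Sprr1a (Pearson r = 0.9886), Sprr2a3 (0.9883) and Srgn (0.988). For Upk3a they were Apela (0.9889), Spice1 (0.9882) and Atp1b2 (0.9875), and for Upk3b they were Nbl1 (0.997), Gstm2 (0.9966) and Mybph (0.9957). For Krt5 they were Zfp286 (0.9853), Bcl10 (0.98) and Fxyd3 (0.9791). For Krt20, which stayed under 1 TPM, they were Mir6970 (0.9327), Ier3ip1 (0.9002) and Trib3 (0.8863).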

How the data were processed

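Total RNA of 5 samples each of IM, OM and cortex was sequenced with paired ends on an Illumina instrument, per the labels' protocols. A single table of TPM values per gene symbol was deposited by the authors, summing to 1000000 in every library. The submitters' processing notes name STAR and mm9, with no role for either. How reads were counted, on which annotation and with which strand rule is not given in the sources used here. The mouse annotation used here for neighbours and overlaps is on GRCm38, not the build of the table, so it serves only for names and neighbourhood. A processed pseudogene of Krt8 in that annotation is not used here, and reads of near-identical copies cannot be told apart.

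TPM are not counts, so limma 3.58.1 in R 4.3.3 (statmod 1.5.0) was fitted to log2(TPM + 1) with zone as the only factor, trend and robust moderation and two-sided tests, for genes reaching 1 TPM in 5 or more libraries. Log2 differences understate the change of low genes. Ratios of means were printed only where no library of either zone was at 0. Partner ratios used log2 of (TPM + 0.1) over (TPM + 0.1). Whole reads were recovered for 19997 of 19997 genes with values above 0 in 2 or more libraries (100%, tolerance 0.001 reads), and 762 genes above 0 in 1 library were left out. limma and the recovery were tested on simulated data.

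The members and all gene lists were chosen with earlier results of these data known. Members with a mean of at least 5 TPM in any zone are given by library and those of at least 1 TPM by their means. The others are given by counts, with up to 5 named by highest value. Of other genes, up to 4 of the most abundant of each list, those moving against it, zone landmarks and the 3 most alike genes are named. The urothelial markers named by library and the genes named as listed at 0 or near 0 were chosen after their values were seen. A promoter window was found for 40 of the 61 members. Alternatives changed the filter, pseudocount, scaling, a replicate block, the libraries included and the test (voom on the recovered reads).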

Additional observations from a re-analysis of the deposited data

Results flagged for a closer look

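For the members tested, 42 groups of 5 libraries were searched for a single library whose gap to its nearest neighbour exceeded 0.71 of the group's range (Dixon's 95% value for 5). There were 10 such values. Chance gives about 1 in 20 groups for independent normal values. These groups hold TPM on the raw scale and share the same 15 libraries, so that rate need not apply here. Of the 10, 5 were the highest value of OM library 1. These were Krt15 at 7.43 TPM (other OM libraries 1.35 to 3.05), Krt18 at 34.4 TPM (16.9 to 17.8), Upk1b at 7.28 TPM (0.801 to 2.54), Upk2 at 9.68 TPM (1.62 to 3.02) and Upk3b at 8.27 TPM (2.14 to 3.36).

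In cortex library 1, Upk1b was at 0.938 TPM (other cortex libraries 0 to 0.241) and Upk2 at 1.37 TPM (0.0966 to 0.292). In cortex library 2, Upk3b was at 1.5 TPM (0.0906 to 0.346). In IM, Upk1b was low in library 2 at 12.3 TPM (other IM libraries 25.8 to 27.0), and Krt10 was high in library 5 at 11.2 TPM (9.46 to 9.61).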

How the results depend on the processing

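Of 1074 alternative values of the 16 members' zone differences under 23 settings, 1046 kept their direction and their side of the threshold. Reversed values were Krt10 for IM minus OM without OM replicate 1, alone or with cortex replicate 1 (0.0050), a pair of libraries chosen after seeing the data, and Krt8 for OM minus cortex after median-ratio scaling (-0.039). The step difference turned for Krt10 under median-ratio scaling (-0.27), quantile normalization (-0.42), voom (-0.066) and without OM replicate 2 (-0.026). It turned for Krt15 under those 4 settings (-0.22, -0.23, -3.53 and -0.038) and a pseudocount of 0.1 (-1.94). For Krt14 it turned with that pseudocount (-0.34), quantile normalization (-0.066) and voom (-1.98), for Upk2 with the pseudocount (-0.37) and voom (-0.78), and for Upk3a likewise (-0.15 and -0.61). With voom it also turned for Krt5 (-1.45), Upk1b (-0.37) and Upk3bl (-0.050). The ratio of Upk3a to Upk1b turned with a pseudocount of 0.01 (-0.50 for IM minus cortex, -0.22 for OM minus cortex) and, for IM minus cortex, without cortex replicate 1 (-0.051) or 4 (-0.081). Leaving out 1 library gave -0.070 to 0.0050 for Krt10 (IM minus OM), -0.026 to 0.12 for the Krt10 step difference, -0.038 to 0.88 for that of Krt15 and -0.081 to 0.24 for the ratio of Upk3a to Upk1b (IM minus cortex). The cause was not tested.

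With no filter, 23 members were called for IM minus OM, 24 for IM minus cortex and 17 for the step difference, and voom called 5 for the last, where the main count was 10. Without the filter 48 members were tested, so the 23, 24 and 17 called were 47.9%, 50% and 35.4% of them, against 68.3%, 71.7% and 50.1% of all genes. With voom, 31.2% of the members tested and 58.5% of all genes were called for the step difference. Leaving out 1 library gave 13 to 15 members called for IM minus OM and for IM minus cortex, 10 to 11 for OM minus cortex and 8 to 12 for the step difference. All genes called in the same fits numbered 11934 to 12572 for IM minus OM and 12416 to 13036 for IM minus cortex. They numbered 4452 to 5522 for OM minus cortex and 9228 to 9770 for the step difference. Median-ratio scaling changed the split of all called genes for OM minus cortex to 2445 higher and 2675 lower, against 4267 and 949 on the TPM scale. For IM minus OM it gave 5740 and 5470, against 9999 and 2592, and for IM minus cortex 6015 and 5806, against 10567 and 2405. The ratio of Upk2 to Upk1a lost its IM minus cortex call with a pseudocount of 1 (0.35).

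Replicate numbers were not taken as pairing in the main fit. Of 15 same-number pairs, 8 correlated above 0.1 (-0.03 to 0.26). This was a larger share than among the 60 other pairs (-0.27 to 0.21). The highest of all pairs was cortex library 1 with OM library 1 (0.26). Whether same-number libraries share a mouse is not stated in the labels and was not tested. With the replicate block, 15 members were called for IM minus OM, 15 for IM minus cortex, 10 for OM minus cortex and 11 for the step difference. These were 93.8%, 93.8%, 62.5% and 68.8% of the members tested, against 84.6%, 87.1%, 36.7% and 67.4% of all genes. For the step difference the members were thus near the share of all genes. The partner ratios kept their differences under the block (Krt18 over Krt8 2.90 and 3.13, Krt19 over Krt8 2.32, 4.58 and 2.26, Krt7 over Krt8 0.61 and 0.81, Upk2 over Upk1a 1.53), but the smallest p of a paired sign-flip test is 0.0625, so none could pass (adjusted exact p = 0.104). Genes under 1 TPM rest on few reads, which limits what can be seen of the trace keratins.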
